A study of Mus musculus with 4 samples.

Results

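Tcf21-type cardiac fibroblasts that lacked transcripts of Dpp4 and Mfap5 were selected on their own reads from a single-cell survey of embryonic mouse hearts, and 1330 of the 24849 cells in the deposited table met the conditions. Members were chosen by unique molecular identifiers (UMIs, each taken as 1 captured transcript) as follows. Cells with at least 500 UMIs and at most 20% mitochondrial UMIs were kept, which left 21495 cells. Of these, 11444 carried under 1% of their UMIs in the 4 cardiomyocyte genes Tnnt2, Actc1, Myh6 and Myh7. Among them 2290 showed at least 2 of the 8 fibroblast genes Tcf21, Spon2, Lsp1, Slc38a5, Gucy1a3, Ogn, Col14a1 and Pid1. More genes of that set than of 8 valve genes (Sox9, Papss2, Col9a1, Col9a3, Meox1, Car3, Scx and Hapln1) were seen in 2022 of these. Fewer than 2 of 8 mesothelial genes (Upk3b, Upk1b, Msln, Krt7, Krt19, Lrrn4, Gpm6a and Aldh1a2) were seen in 1653, and 1330 of those had no UMI of Dpp4 or Mfap5. All these genes were used in the choice, so their levels in members against other cells are given as a description.

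The hearts came from LatsCKO embryos, Wt1 CreERT2/+; Lats1/2 F/F; Rosa26mTmG/+, and from control embryos, Wt1 CreERT2/+; Rosa26mTmG/+, at E13.5 and E14.5, each genotype at each stage being 1 Drop-seq library. Both genotypes therefore carry the same Cre and reporter alleles, and they differ in the floxed Lats1 and Lats2 alleles. CreERT2, a Cre recombinase that acts only after tamoxifen, is made where the Wt1 gene is active. Deletion passes on to daughter cells, and the cells of a LatsCKO heart outside these lineages keep their Lats1 and Lats2 genes. The mTmG reporter makes EGFP after recombination. The number of embryos behind a library and the tamoxifen schedule are not given in the sources used here. Stages are those of the sample labels, and the series' design text gives a slightly different early stage. With 1 library per genotype and stage any difference between embryos or preparations cannot be told apart from genotype or stage. Members numbered 451 in LatsCKO and 322 in control hearts at E13.5, and 220 in LatsCKO and 337 in control hearts at E14.5. Their median depth was 2325, 2012.5, 1054.5 and 1077 UMIs per cell in the same order, and their summed UMIs were 1276092, 929611, 292193 and 571552.

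Cardiac fibroblasts are the interstitial cells that lay down and remodel the collagen, elastin and proteoglycan matrix of the heart. Most of them descend from the epicardium, the mesothelial sheet around the heart, and Tcf21 is a transcription factor that the epicardium needs to produce them. LATS1 and LATS2 are the kinases of the Hippo pathway that phosphorylate YAP and TAZ and so keep these coactivators from driving TEAD-bound genes such as Ctgf, Cyr61 and Ankrd1.

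The label was checked against markers that the selection did not use. Of 18 general fibroblast markers, 17 were seen in the members of every library and Lamc3 was at 0. At least 2 of them were seen in 98.2% and 98.1% of members in LatsCKO and control hearts at E13.5, and in 99.1% of members of each genotype at E14.5. Col1a1 (type I collagen) reached 1403 against 508 CPM (a UMI count scaled to a common library total) in members and in all other kept cells of the LatsCKO heart at E13.5, and 1156 against 364 CPM in the control heart. At E14.5 it reached 2892 against 594 CPM in the LatsCKO heart and 1858 against 398 CPM in the control heart. These markers set members apart from most heart cells but not from epicardial cells, valve cells or the cells removed for Dpp4 or Mfap5. Their summed level was 20548 and 18299 CPM in LatsCKO and control members at E13.5, then 20565 and 19039 CPM at E14.5, where epicardial cells (at least 2 mesothelial genes) had 23086 and 25657 CPM and then 22698 and 32996 CPM. At least 2 of the markers were seen in 100% of epicardial cells of each library, and in 87.0%, 79.3%, 60.8% and 67.2% of all other kept cells. Valve cells (at least 2 valve genes and more of them than fibroblast genes) summed to 22009.5 and 20392 CPM, then 19113 and 19194 CPM. Cells that failed only on Dpp4 or Mfap5 summed to 24075 and 18118 CPM, then 23360 and 20870 CPM. Cardiomyocyte-rich cells summed to between 1842 and 2667 CPM.

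Tcf21, a gene of the selection, lies on the minus strand of chromosome 10 from 22817281 to 22820174 (mm10) and had 527 and 695 CPM in LatsCKO and control members at E13.5, then 534 and 523 CPM at E14.5, where all other kept cells had 67.7 and 70.5 CPM and then 31.2 and 30.5 CPM. After each cell was thinned to 500 UMIs, Tcf21 was seen in 23.1%, 35.1%, 22.7% and 27.6% of members (LatsCKO and control at E13.5, LatsCKO and control at E14.5), an excess that the selection itself fixes, against 0.837%, 0.722%, 0.449% and 1.06% of cardiomyocyte-rich cells. The 8 selecting genes were not equally frequent among members. Lsp1, which encodes an actin-binding protein, was seen in 56.5% and 70.5% of members in LatsCKO and control hearts at E13.5, then in 63.2% and 66.5% at E14.5. Tcf21 itself was seen in 57.9% and 67.1% at E13.5, then in 42.7% and 49.9% at E14.5. Pid1 and Slc38a5, an amino acid transporter gene, were the least frequent, at 13.4% to 22.4% and 15.5% to 28.3% of members. Exactly 2 of the 8 genes were seen in 159, 89, 76 and 130 members, so 27.6% to 38.6% of each library's members stood just inside the threshold. Just outside it stood 234, 193, 211 and 188 cells that showed 1 of the 8 genes and passed the other conditions. Pdgfra, the PDGF receptor of fibroblast progenitors, had 158 and 256 CPM in LatsCKO and control members at E13.5, then 151 and 224 CPM at E14.5, where the cells just outside had 66.6 and 58.7 CPM and then 27.5 and 122 CPM. Members were higher in every library. Eln, the gene of elastin, did not separate the cells in this way, with 4109 and 2419 CPM in members against 2908 and 2737 CPM just outside at E13.5 (LatsCKO and control), and 1776 and 602 CPM against 2041 and 2238 CPM at the later stage.

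Members without a Tcf21 UMI carried a different mix of transcripts from members with one. Eln had 7785 and 4816 CPM in members without Tcf21 in LatsCKO and control hearts at E13.5, where those with Tcf21 had 1619 and 1054 CPM. Rgs5, a regulator of G protein signalling that is typical of pericytes, had 885 and 839 CPM without Tcf21, where those with it had 176 and 172 CPM. Both genes were several-fold higher in members that lacked a Tcf21 UMI, in each of these hearts. Pdgfra ran the other way, with 62.1 and 113 CPM without Tcf21, where members with Tcf21 had 223 and 338 CPM. At least 2 of 4 defining mural genes (Rgs5, Kcnj8, Abcc9 and Notch3, genes of pericytes) were seen in 22 of 190 and 10 of 106 members without Tcf21 at E13.5, where members with Tcf21 showed them in 17 of 261 and 5 of 216. A class that is defined by a few sparse genes thus held both Tcf21-bearing cells rich in Pdgfra and Dcn and cells without a Tcf21 UMI that were rich in Eln, Cxcl12 and Rgs5.

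**Figure D1:**
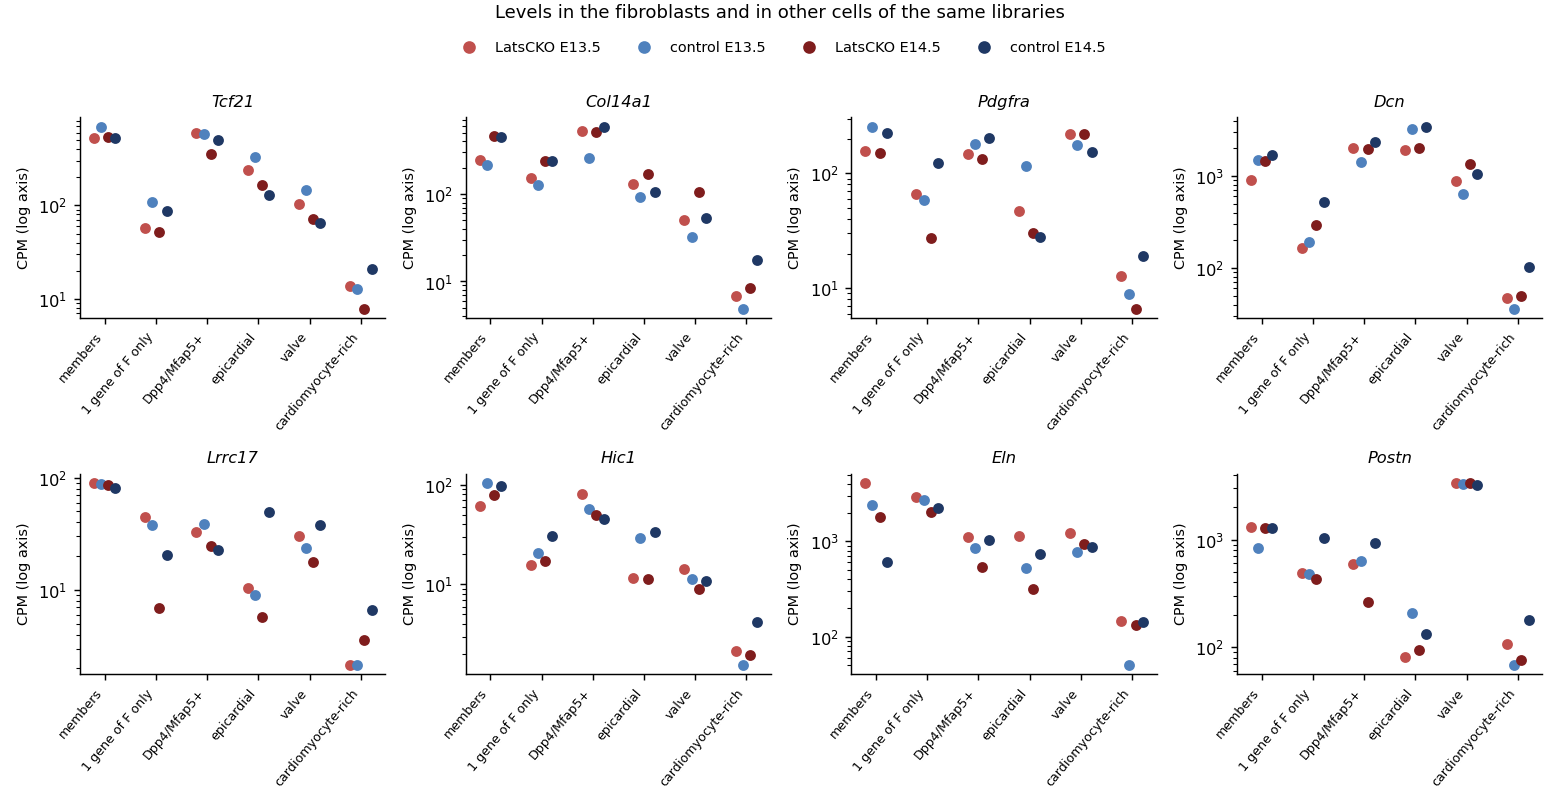
Summed level of 8 genes (CPM, log axis) in members, in cells that showed 1 of the 8 fibroblast genes, in Dpp4 or Mfap5 positive cells, in epicardial cells, in valve cells and in cardiomyocyte-rich cells, with 1 point per library. Levels under 1 CPM are drawn at 1 CPM, with an open point where the count was 0. Lrrc17 lay between 80.5 and 90.1 CPM in members of all 4 libraries, while Postn was highest in valve cells.

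Beyond the selecting genes, the members were described by the 20 genes with the highest smallest excess over all other kept cells of the same library. Lrrc17, which encodes a secreted leucine-rich repeat protein, led them with 90.1 and 88.2 CPM in LatsCKO and control members at E13.5, then 85.6 and 80.5 CPM at E14.5. Its smallest and largest log2 excess over the other cells were 2.78 and 3.65. Lrrc17 was also lower in the Dpp4 or Mfap5 positive cells that passed every other condition, at 33.0, 38.3, 24.7 and 22.7 CPM. Ptn, the gene of the heparin-binding growth factor pleiotrophin, was the most abundant of the 20, at 4681 and 6667 CPM at E13.5, then 6540.2 and 7742 CPM at E14.5. Rgs5, the pericyte gene, stood seventh, at 462 and 414 CPM at E13.5, then 144 and 150.5 CPM at E14.5. Of its 590 UMIs in LatsCKO members at E13.5, 340 lay in members without 2 or more markers of another class. Others were the transcription factor genes Hic1 and Snai2, the collagen VI genes Col6a1 and Col6a2, the proteoglycan genes Gpc6 and Aspn, the collagen cross-linking enzyme gene Lox and the integrin gene Itga8. Not all were highest in members. Lox had 317 and 324 CPM in LatsCKO and control members at E13.5, below the 423 and 420.4 CPM of epicardial cells, and Mme, a membrane peptidase gene, had 58.8 and 54.9 CPM in members, below the 204 and 95.7 CPM of the Dpp4 or Mfap5 positive cells.

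Markers of other kinds of cells were present among the members. At least 2 defining genes of macrophage, endothelial, mural or erythroid cells were seen in 137 of 1330 members, or 10.3%. The share was 14.2% and 9.32% in LatsCKO and control hearts at E13.5, then 5.45% and 9.2% at E14.5. Macrophage markers, 13 in all, were all seen in 3 libraries, with Cd68 at 0 in LatsCKO members at E14.5. Their summed level was 755 and 363 CPM in LatsCKO members at E13.5 and E14.5, against 281 and 177 CPM in control members. The 12 endothelial markers summed to 513 and 554 CPM in LatsCKO members, with Egfl7 and Apln at 0 at E14.5, against 642 and 1293 CPM in control members, with Cldn5 at 0 at E13.5. The 11 mural markers summed to 3209 and 1848 CPM in LatsCKO members against 2602 and 1156.5 CPM in control members, with Higd1b at 0 in both genotypes at E13.5. The 10 erythroid markers had the largest sum, at 6825 and 3032 CPM in LatsCKO members at E13.5 and E14.5, with Alas2 and Slc4a1 at 0 at the later stage, against 8566 and 5303 CPM in control members. Of 7 erythroid markers tested within members, 0 were called between genotypes and 5 were lower in LatsCKO members at an unadjusted p under 0.05. The 12 cardiomyocyte markers that the selection did not use summed to 1137 and 1893 CPM in LatsCKO members at E13.5 and E14.5, against 501 and 2051 CPM in control members. Mesothelial genes outside the selection were low, with 7 epicardial markers at 101 to 172 CPM and Muc16, Krt8, Krt18 or Bnc1 at 0 in different libraries. Barcodes were almost unshared: 9 of 21486 kept barcodes occurred in more than 1 library, 2 members had such a barcode, and 0 barcodes were members in 2 libraries.

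The abundance of the fibroblasts was compared between genotypes at each stage. At E13.5 they made up 7.62% of kept cells in LatsCKO hearts and 7.19% in control hearts, a ratio of 1.06 with a 95% counting interval of 0.917 to 1.23. At E14.5 they made up 3.93% of kept cells in LatsCKO hearts and 6.12% in control hearts, a ratio of 0.642 (0.539 to 0.763). The interval includes 1 at E13.5 and lies below 1 at E14.5. Thinning every cell to 500 UMIs before the conditions were applied gave 4.53% and 3.91% at E13.5, then 3.29% and 3.996% at E14.5, with ratios of 1.16 (0.955 to 1.41) and 0.823 (0.673 to 1.01), so that the interval at E14.5 then reached 1. These intervals cover counting error only, and the shares were not tested across the 4 libraries.

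The condition on Dpp4 and Mfap5 removed more cells from LatsCKO hearts. Dpp4 encodes a surface peptidase and Mfap5 a microfibril protein. Of the cells that passed all other conditions, 162 of 613 in LatsCKO hearts and 46 of 368 in control hearts at E13.5 carried a UMI of either gene, or 26.4% and 12.5%. At E14.5 they were 93 of 313 in LatsCKO hearts and 22 of 359 in control hearts, or 29.7% and 6.13%. With these cells included the genotypes had 613 and 368 fibroblasts at E13.5, then 313 and 359 at E14.5. The difference in members at E14.5 is thus in part set by the exclusion itself, which was chosen on these genes.

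**Figure D2:**
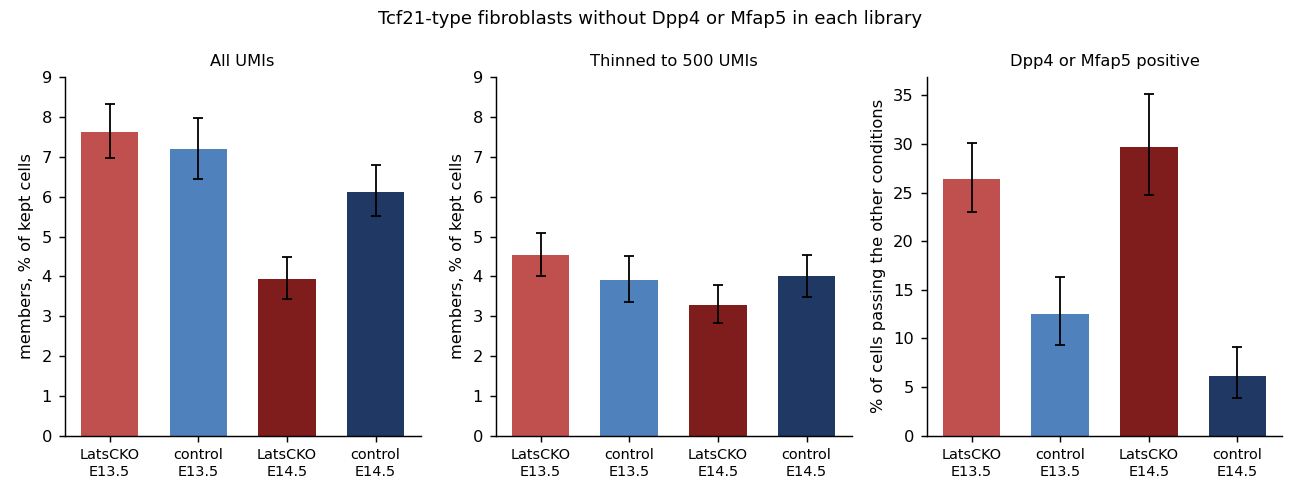
Members as a percentage of kept cells before and after thinning to 500 UMIs, and Dpp4 or Mfap5 positive cells as a percentage of those that passed the other conditions, with 1 bar per library and exact 95% counting intervals. The E14.5 genotypes stand apart at 3.93% and 6.12% of kept cells with all UMIs and lie closer, at 3.29% and 3.996%, after thinning.

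Lats1 and Lats2, the targeted genes, were too sparse to check the labels. Lats1 had 36 UMIs in LatsCKO and 35 in control members at E13.5, then 6 and 13 at E14.5. Lats2 had 37 and 42 UMIs at E13.5, then 10 and 24 at E14.5. All 4 genotype intervals included 0 on the log2 scale, and whether the sequenced 3' tags lie in the floxed exons is unknown here, so these counts check nothing. The reporter is carried by both genotypes, so it cannot check the Lats1 and Lats2 alleles either. Egfp had 99 UMIs in LatsCKO and 41 in control members at E13.5 (77.6 and 44.1 CPM), and 30 and 16 UMIs at E14.5 (103 and 28.0 CPM). It was higher in LatsCKO members at both stages, by 0.80 (0.28 to 1.38) and 1.85 (0.95 to 2.85) on the log2 scale, but did not pass in the joint test (1.27, SE 0.36, edgeR adjusted p = 0.507). EGFP transcripts were seen in only 3.33%, 1.55%, 4.55% and 1.78% of members after thinning (LatsCKO and control at E13.5, LatsCKO and control at E14.5), against 1.63%, 0.542%, 0.994% and 1.06% of cardiomyocyte-rich cells. Members with a recombined Lats1 or Lats2 gene could therefore not be told apart from members without one.

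The genotype difference within the fibroblasts was tested with edgeR's quasi-likelihood fit on the 4 summed libraries, with stage as a second factor, which left 1 residual degree of freedom. Of 9570 genes tested, 10 rose in LatsCKO members (0.104% of genes tested) and 6 fell (0.0627%) at a Benjamini-Hochberg adjusted p under 0.05. At an unadjusted p under 0.05 the counts were 237 up and 219 down (2.48% and 2.29%). The called genes fell into few groups. Ribosomal protein pseudogenes and unnamed loci made up 4 of the 10 that rose (Rps13-ps1, Gm11942, Rps15a-ps8 and Gm8420) and 5 of the 6 that fell (Gm17660_Gm43333, AA465934, RP23-174M4.2, Gm11966 and the merged Gm24523_Rpl30_Rpl30). Reads of these loci can be shared with near-identical copies, so their counts are uncertain. The 257 ribosomal protein pseudogenes summed to 10653 and 8845 CPM in LatsCKO and control members at E13.5, then 7680 and 12177 CPM at E14.5. All other kept cells moved alike, with 8674 and 6646 CPM, then 6036 and 8935 CPM. The summed shift was thus not particular to members, and processing cannot be told apart from genotype. Pf4, Mrc1, Lyve1 and F13a1, genes of tissue macrophages, rose by 2.94 (SE 0.36), 2.48 (SE 0.37), 5.68 (SE 0.86) and 3.62 (SE 0.58) on the log2 scale, and Fabp4, a fatty acid carrier gene of capillary endothelium, fell by 2.02 (SE 0.24). Lyve1 had 43 UMIs in LatsCKO and 1 in control members at E13.5, then 16 and 0 at E14.5, so its fitted value depends on the prior for the empty library. In all other kept cells Lyve1 was 3.83-fold higher in LatsCKO hearts at E13.5 and 4.02-fold at E14.5. Of 13 macrophage markers tested there by edgeR 0 were called. At an unadjusted p under 0.05, 9 were higher and 0 lower, where 331 and 429 of all 17034 genes were. Lrat and Mt1 were the remaining 2 genes called in members.

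The macrophage and endothelial genes lay in few cells. Of the 155 UMIs of Mrc1, a mannose receptor, in LatsCKO members at E13.5, 154 lay in members that also showed other-class markers, and 10 members held all of them. F13a1, a clotting factor subunit, had 83 of 85 UMIs in such members, and Pf4 had 103 of 157. Fabp4 had 154 of its 156 UMIs in control members at E13.5 in 1 cell, and 167 of 317 in control members at E14.5 in 1 cell. With the 137 members that held other-class markers left out, the log2 difference of Fabp4 was 0.34. In that set 8539 genes were tested and 1 was called, the pseudogene Rps13-ps1. With ribosomal protein genes and pseudogenes left out as well, edgeR called 0 of 7615 genes, with 242 higher and 181 lower at an unadjusted p under 0.05.

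**Figure D3:**
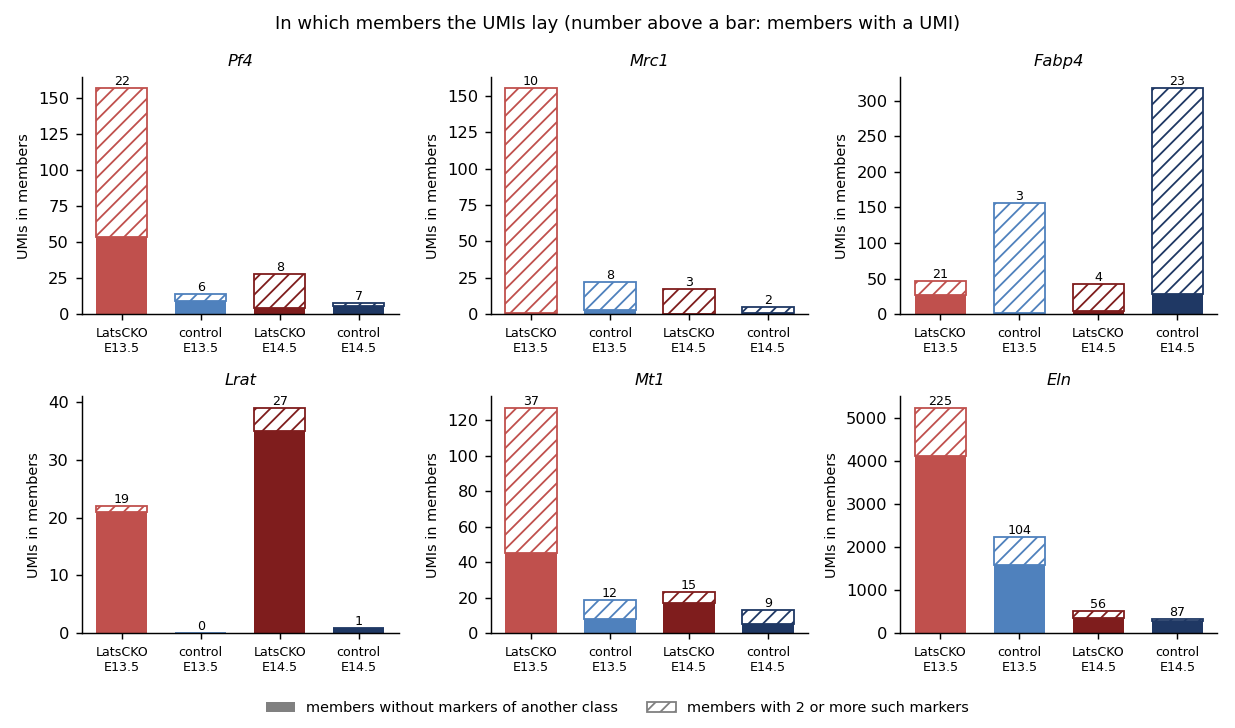
UMIs of 6 genes summed over the members of each library, split into members without (solid) and with (hatched) 2 or more defining genes of another class; the number above a bar counts the members with a UMI. Mrc1 at 155 UMIs in LatsCKO members at E13.5 was held by 10 cells, while the 22 and 39 UMIs of Lrat were spread over 19 and 27 cells.

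Lrat, the enzyme that esterifies retinol for storage, was a called gene whose UMIs were spread over many members. It had 22 UMIs in LatsCKO members and 0 in control members at E13.5, then 39 and 1 at E14.5. These lay in 19 and 27 LatsCKO members, only 1 and 4 of the UMIs lay in members with other-class markers, and control members with a UMI numbered 0 and 1. The level was at least 5.34-fold higher in LatsCKO members at E13.5, with 3 UMIs set as the floor of the control library. At E14.5 the 39 and 1 UMIs, scaled to the library totals without a prior, gave a 76.3-fold ratio. That ratio rests on 1 control UMI and is no bound. With the prior that ratios carry, the log2 ratio at E14.5 was lower, at 5.69, with an exact interval of 3.69 to 11.59. The fitted log2 difference of 6.26 (SE 0.77, edgeR adjusted p = 0.00475) depends on the prior for the empty library and is no bound. Without the members that held other-class markers the fitted difference was 5.99 with an edgeR adjusted p of 0.231, and DESeq2 on all members gave an adjusted p of 0.0111. Lrat was not peculiar to the fibroblasts. All other kept cells had 114 UMIs in LatsCKO and 0 in control hearts at E13.5, then 54 and 1 at E14.5. The genotype difference of members against that of other cells was 0.79 (SE 3.65, edgeR adjusted p of 1). Control counts were 0 or 1 UMI in both, so this test could not decide whether they differed.

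Mt1, which encodes the metal-binding protein metallothionein 1, had 127 UMIs in LatsCKO and 19 in control members at E13.5, then 23 and 13 at E14.5. That was 99.5 and 20.4 CPM at E13.5, then 78.7 and 22.7 CPM at E14.5, so LatsCKO members were above control members at both stages. It rose by 2.09 on the log2 scale (SE 0.35, edgeR adjusted p = 0.0451). Of its UMIs, 82, 11, 6 and 8 lay in members with other-class markers (LatsCKO and control at E13.5, LatsCKO and control at E14.5). Without those members the stage ratios were 2.03 and 2.47 on the log2 scale and the call was lost.

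YAP and TAZ act through TEAD factors, whose best-known site reads GGAATG, or CATTCC on the opposite strand. The promoter windows of Ankrd1 (a muscle and stress response gene) and Cyr61 (a matricellular protein gene), 2 known YAP targets, are shown with that of Lrat because these genes carry the results on this pathway and on a called gene that is no pseudogene. Each runs from 250 bases before to 50 after the start in RefSeq on GRCm38.p6, 5′ to 3′ on the gene's own minus strand, with matches to the 6 letters on either strand in capitals. Ankrd1 is at chr19:36119795-36120094, Cyr61 at chr3:145649936-145650235 and Lrat at chr3:82903925-82904224.
Ankrd1: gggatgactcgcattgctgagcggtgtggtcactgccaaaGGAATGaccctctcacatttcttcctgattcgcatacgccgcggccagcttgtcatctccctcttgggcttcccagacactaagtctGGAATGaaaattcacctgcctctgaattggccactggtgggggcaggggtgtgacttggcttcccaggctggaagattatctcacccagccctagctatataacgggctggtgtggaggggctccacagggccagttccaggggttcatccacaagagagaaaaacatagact
Cyr61: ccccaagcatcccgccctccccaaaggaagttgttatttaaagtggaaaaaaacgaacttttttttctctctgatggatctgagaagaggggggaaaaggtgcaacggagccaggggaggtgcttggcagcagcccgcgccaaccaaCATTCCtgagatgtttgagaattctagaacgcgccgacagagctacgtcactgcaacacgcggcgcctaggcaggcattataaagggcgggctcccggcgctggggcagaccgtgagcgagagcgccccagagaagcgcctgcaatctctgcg
Lrat: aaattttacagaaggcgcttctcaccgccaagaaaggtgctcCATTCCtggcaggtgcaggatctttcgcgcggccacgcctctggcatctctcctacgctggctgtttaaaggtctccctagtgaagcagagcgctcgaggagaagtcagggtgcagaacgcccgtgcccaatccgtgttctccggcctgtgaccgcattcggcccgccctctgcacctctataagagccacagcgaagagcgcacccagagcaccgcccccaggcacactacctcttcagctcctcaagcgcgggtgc
Ankrd1 held the letters at -210 and -123 from the start, Cyr61 at -103 and Lrat at -208. Of 32851 promoter windows of this length in the table, 4817, or 14.7%, hold them, so a match is common and is a description of the letters only. Windows of Axl and Amotl2, also YAP targets, hold them too, while those of Mt1, Sfrp2, Fbln5, Tcf21, Cxcl12, Postn, Pdgfra and Tgfbi do not. Ctgf, Eln, Mgp and Angpt1 had no entry to match.

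None of 19 tested YAP and TAZ target genes passed the adjusted threshold in members, and 3 were higher and 0 lower at an unadjusted p under 0.05, where 2.48% of all genes were higher and 2.29% lower. The same background applies to each list below. Their median genotype difference was 0.28 on the log2 scale, against 0.02 for all genes tested. The median stage ratios were 0.03 at E13.5 and 0.65 at E14.5. Ctgf, a matricellular growth factor modulator, had 258 CPM in LatsCKO and 122 CPM in control members at E13.5, then 116 and 52.5 CPM at E14.5. It was higher in LatsCKO members at both stages, by 1.08 (0.77 to 1.41) and 1.15 (0.40 to 1.91), with an edgeR adjusted p of 0.22, and by 1.05 and 0.91 without the marked members, those with other-class markers. Ankrd1 had 101 CPM in LatsCKO and 87.1 CPM in control members at E13.5, then 363 and 115 CPM at E14.5. The log2 ratio was 0.21 (-0.20 to 0.63) at E13.5, where 37 of the 81 UMIs of control members lay in 1 cell, so that the control level there rests largely on that cell. It was 1.65 (1.19 to 2.12) at E14.5, where no cell held more than 10 UMIs. Cyr61 had 871 and 789 CPM at E13.5, then 513 and 392 CPM at E14.5.

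The matrix genes were compared next. Eln, which encodes the core of elastic fibres and lies on chromosome 5 from 134702593 to 134747323 (mm10), had 4109 CPM in LatsCKO and 2419 CPM in control members at E13.5, then 1776 and 602 CPM at E14.5. Mgp, the gene of an inhibitor of matrix calcification, had 1853 and 947 CPM at E13.5, then 513 and 294 CPM at E14.5. Fbln5, which helps elastin assemble, had 1772 and 1253 CPM at E13.5, then 503 and 199 CPM at E14.5. All 3 were higher in LatsCKO members at both stages with both counting intervals off 0: Eln by 0.76 and 1.56, Mgp by 0.97 and 0.80 and Fbln5 by 0.50 and 1.33 on the log2 scale. The share of members with a UMI did not follow at E14.5: Eln was seen in 49.9% of LatsCKO and 32.3% of control members at E13.5, then 25.5% and 25.8% at E14.5, and Mgp in 53.7% and 43.5%, then 19.5% and 22.3%. Of the 519 Eln UMIs in LatsCKO members at E14.5, 115 lay in 1 cell, and UMIs of 1 cell are not independent, so the intervals are too narrow. None passed the test within members, where the edgeR adjusted p was 0.28 for Eln, 0.334 for Mgp and 0.586 for Fbln5. Among all genes, 125 of 10374 genes with at least 30 UMIs were higher at both stages in this sense (1.2%) and 138 were lower (1.33%). Another 250 had both intervals off 0 in opposite directions, 144 of them ribosomal protein genes or pseudogenes. Agreement was thus about as common as disagreement over all genes. Over 7798 protein-coding, non-ribosomal genes in members without other-class markers, 75 were higher, 60 lower and 75 opposite.

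The elastic fibre and microfibril list had 16 tested members, of which 0 were called and 3 were higher at an unadjusted p under 0.05, with a median of 0.34. Of 14 interstitial collagen genes 0 were called in either direction, with 0 at an unadjusted p under 0.05 and a median of 0.25. Col1a1 had 1403 CPM in LatsCKO and 1156 CPM in control members at E13.5, then 2892 and 1858 CPM at E14.5, and Col3a1, the type III collagen gene, had 4762 and 4522 CPM and then 3905 and 4669.7 CPM. Col3a1 was thus nearly level between genotypes at E13.5 and lower in LatsCKO members at E14.5. Of 13 proteoglycan genes 0 were called. Bgn (biglycan) had 494 and 303 CPM at E13.5, then 387 and 273 CPM at E14.5, higher in LatsCKO members, while Dcn (decorin), a small proteoglycan that binds collagen fibrils, had 904 and 1483 CPM at E13.5, then 1472 and 1678 CPM at E14.5, lower in LatsCKO members. Among 19 contractile genes 0 were called and 4 were higher at an unadjusted p under 0.05. Acta2, smooth muscle actin, was 1 of them, with 1488 and 1072 CPM at E13.5, then 897 and 492 CPM at E14.5. Acta2 also stands in the mural list, whose sum was higher in LatsCKO members at both stages as given above. Without the members that held other-class markers Eln was still higher, by 0.99 and 1.11, Mgp by 1.15 and 0.65 and Acta2 by 0.47 and 0.60. That set kept most of the mural sum, with 3006 and 2416 CPM in LatsCKO and control members at E13.5, then 1625 and 1068 CPM at E14.5. The part of cells with mural genes in these ratios was not tested.

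The transcription factors and surface receptors that mark fibroblasts gave no called gene. Of 31 transcription factor genes of fibroblasts 0 were called, 0 were higher and 1 lower at an unadjusted p under 0.05, with a median of 0.02. Pdgfra had 158 CPM in LatsCKO and 256 CPM in control members at E13.5, then 151 and 224 CPM at E14.5. It was lower in LatsCKO members at both stages, by -0.69 (-0.97 to -0.42) and -0.56 (-1.10 to -0.07), with an edgeR adjusted p of 0.753, and by -0.63 and -0.73 without the marked members. Tgfbi, a secreted matrix adhesion protein gene, had 139 and 130 UMIs at E13.5 and only 6 in LatsCKO members against 86 in control members at E14.5, a log2 ratio of -2.77 (-4.36 to -1.69) at that stage and -3.05 without the marked members.

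Signalling lists gave few calls within members. Of 21 Hippo pathway genes 0 were called, 0 were higher and 1 lower at an unadjusted p under 0.05, with a median of 0.05. Of 8 retinoid genes 1 rose, Lrat itself. Of 21 TGF-beta and BMP genes and 13 Wnt genes 0 were called, with medians of -0.03 and 0.10. Ifi27, an interferon-induced gene, had 103 CPM in LatsCKO and 33.3 CPM in control members at E13.5, then 106 and 47.2 CPM at E14.5. Gpc4, a cell surface heparan sulphate proteoglycan gene, had 87.0 and 47.3 CPM at E13.5, then 92.4 and 26.2 CPM at E14.5. Both were higher in LatsCKO members at both stages, with edgeR adjusted p of 0.22 and 0.474, and without the marked members the ratios were 1.63 and 1.35 for Ifi27 and 1.17 and 2.00 for Gpc4.

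Immediate early genes are switched on within minutes of a stimulus and also during tissue dissociation. Of 19 tested, 0 were called, 1 was higher and 9 were lower at an unadjusted p under 0.05, and the median was -0.53 on the log2 scale, against 0.02 for all genes. At both stages 8 of the 19 were lower with both intervals off 0, and 1, Ier3, was higher. Fos had 1215 CPM in LatsCKO and 1758 CPM in control members at E13.5, then 671 and 1104 CPM at E14.5. Egr1 had 939.6 and 1344 CPM and then 629.7 and 1167 CPM. Without the marked members the ratios were -0.50 and -0.95 for Fos and -0.51 and -1.12 for Egr1. The same list summed to 3089 and 3548 CPM in all other cells at E13.5 and to 2244 and 2865 CPM at E14.5, so the summed level was lower in LatsCKO hearts there too, and the handling of the hearts cannot be told apart from genotype.

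Dividing cells were looked for with phase genes. After thinning, at least 2 of 24 G2 and M phase genes were seen in 31.9% of LatsCKO and 43.8% of control members at E13.5, then in 40.9% and 42.7% at E14.5. At least 2 of 22 S phase genes were seen in 27.5% and 30.7% at E13.5, then in 13.6% and 23.7% at E14.5. None of these genes was called between genotypes, and their medians were -0.16 and -0.24. LatsCKO members had the lower share in all 4 pairs, with the widest gap in G2 and M genes at E13.5 and in S genes at E14.5. Valve cells of LatsCKO hearts were also lower in all 4 pairs, with G2 and M shares of 23.0% against 28.1%, then 27.5% against 33.8%. Epicardial cells of LatsCKO hearts were higher in all 4 pairs, with G2 and M shares of 24.4% against 18.5%, then 31.7% against 25%. These shares have no test.

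**Figure D4:**
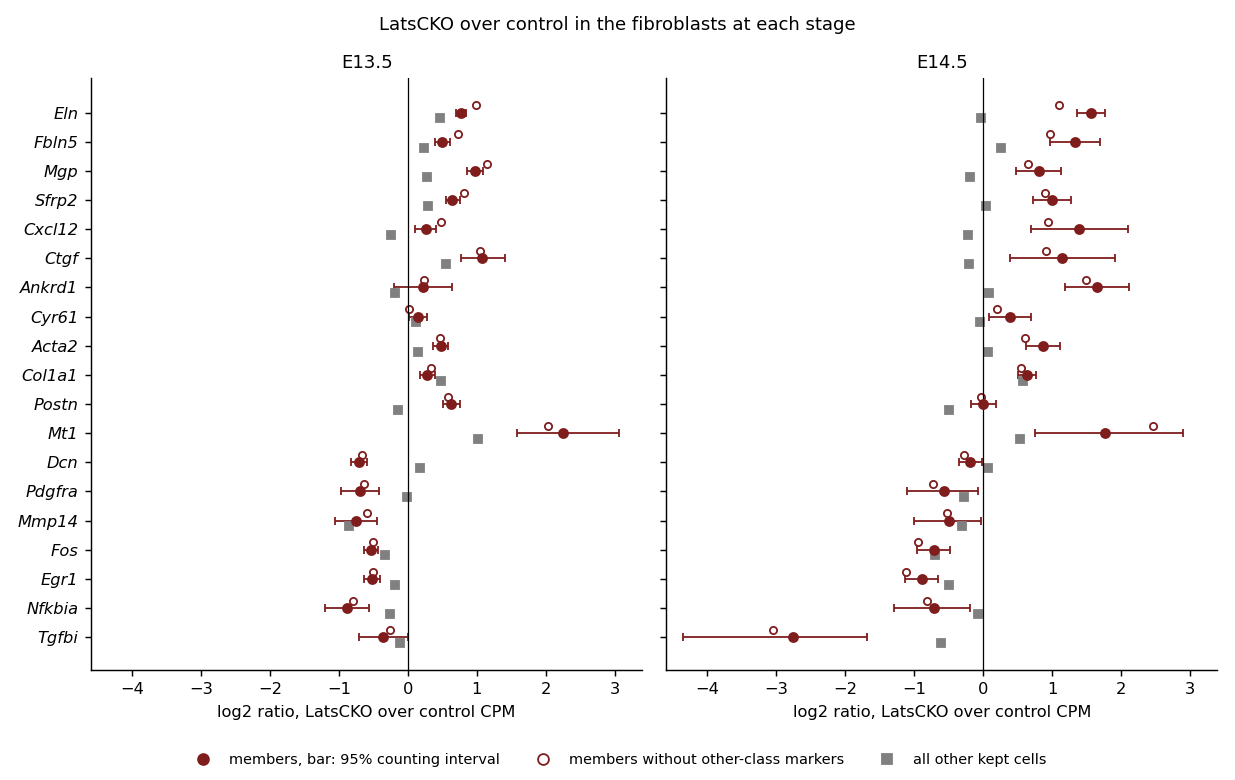
Log2 ratio of LatsCKO over control CPM at E13.5 and E14.5 for 19 genes in members (filled, with 95% counting intervals), in members without other-class markers (open) and in all other kept cells (squares). Eln, Mgp, Sfrp2 and Ctgf lie right of 0 in members at both stages, and Dcn, Pdgfra, Fos and Egr1 lie left of 0.

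Whether the genotype difference of the fibroblasts differed from that of all other cells in the same libraries was tested as an interaction of class and genotype, with library as a block. Of 16127 genes, 24 were higher (0.149%) and 20 lower (0.124%) in the fibroblast difference at an adjusted p under 0.05. Genes of the selection and of other cell types were among them, so the matrix and signalling genes are given with and without the members that held other-class markers. Eln exceeded the other cells' difference by 0.87 (SE 0.15, edgeR adjusted p = 1.25e-05), and by 0.77 (adjusted p = 0.00384) without those members. In the other cells its genotype ratios were 0.47 and then -0.03. Mgp exceeded it by 0.80 (SE 0.15, adjusted p = 0.000173) and by 0.85 (adjusted p = 0.00122) without those members. Both comparisons are with the pooled other cells, whose make-up differed by genotype. Epicardial cells were 238 of 5464 in LatsCKO and 119 of 4156 in control hearts at E13.5. At E14.5 they were 205 of 5377 and 80 of 5168. Cells that failed only on Dpp4 or Mfap5, 162 and 46 and then 93 and 22, also stood among them. The part of this make-up in the differences here and in the next 2 paragraphs was not tested. In valve cells the genotype ratios were 0.66 and 0.12 for Eln and 0.46 and 0.04 for Mgp at E13.5 and E14.5, and the difference from valve cells was not tested.

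Single genes of signalling lists were called too, while the lists as wholes gave few calls: 0 of 27 TGF-beta and BMP, 0 of 22 Hippo and 0 of 6 PDGF genes, 1 of 23 Wnt genes, 1 of 11 chemokine and complement genes, and 2 higher and 1 lower of 12 IGF genes. Cxcl12, a chemokine that attracts cells bearing CXCR4, had 784 CPM in LatsCKO and 657 CPM in control members at E13.5, then 147 and 56.0 CPM at E14.5. Its log2 ratio was 0.25 (0.11 to 0.40) and 1.39 (0.70 to 2.10) in members, where the other cells had -0.25 and -0.22, and the difference was 0.74 (edgeR adjusted p = 0.00486, and 0.0101 without the marked members). Igf1, a growth factor gene, had 272 and 219 CPM at E13.5, then 133 and 108 CPM at E14.5, with an excess of 0.74 (adjusted p = 0.0118, and 0.00122). Tnfrsf12a, the receptor for the cytokine TWEAK, exceeded the other cells by 1.08 (SE 0.23, adjusted p = 0.0017, and 0.00169). Angpt1, the angiopoietin ligand of the endothelial receptor TIE2, was rare, with 19 UMIs in LatsCKO and 4 in control members at E13.5, then 12 and 3 at E14.5, and its excess was 2.83 (SE 0.55, adjusted p = 0.000414, and 0.00926). All 4 passed in either set of members.

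Ankrd1 exceeded the other cells by 0.95 (edgeR adjusted p = 0.00178), Postn, the gene of the matricellular protein periostin, by 0.63 (adjusted p = 0.00593), Sfrp2, a secreted Wnt modulator gene, by 0.59 (adjusted p = 0.0238) and Tagln, a smooth muscle actin-binding protein gene, by 0.62 (adjusted p = 0.0131). These 4 did not pass without the marked members, where the adjusted p was 0.0681, 0.133, 0.0597 and 0.287. Igfbp5, the gene of a secreted binding protein for insulin-like growth factors, had 175 CPM in LatsCKO and 202 CPM in control members at E13.5, then 137 and 317 CPM at E14.5. It fell short of the other cells by -0.77 (adjusted p = 0.00593, and 0.205 without the marked members). Dcn fell short of the other cells by -0.61 (adjusted p = 0.00809) and -0.64 (adjusted p = 0.0337) without those members. Its ratio was -0.72 and -0.19 in members and 0.18 and 0.07 in the other cells. After thinning, Dcn was seen in 56.7% and 82.4% of epicardial cells (LatsCKO and control) at E13.5, then 61.0% and 77.5% at E14.5. The larger share of epicardial cells in LatsCKO hearts was not taken out of the test. The fit drew all genes to a single dispersion trend, and DESeq2 on the same design called 1 gene in all.

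Against epicardial cells, those with at least 2 mesothelial genes, 2 of 9636 genes differed in their genotype response (0.0208%), both with a higher difference in the fibroblasts, and scaling with DESeq2 size factors gave 17 higher and 9 lower. Mgp differed by 1.42 (SE 0.22, edgeR adjusted p = 0.0473), with log2 ratios of 0.97 and 0.80 in members and -0.12 and -1.19 in epicardial cells at E13.5 and E14.5. Pdlim3, the gene of an actin-associated LIM protein, differed by 2.23 (SE 0.33, adjusted p = 0.0473). It had 329 and 296 CPM in LatsCKO and control members at E13.5, then 281 and 257 CPM at E14.5, ratios of 0.15 and 0.13, whereas epicardial cells had -2.50 and -1.20. Eln did not pass here (0.98, adjusted p = 0.886). DESeq2 called 0 genes here, with 20 higher and 6 lower at an unadjusted p under 0.05, where edgeR had 224 and 314.

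The stages were compared with the same additive fit. Of 9570 genes, 88 were higher at E14.5 (0.92%) and 17 lower (0.178%). Of 78 ribosomal protein genes tested, 35 were called, all higher at E14.5. Rpl23a had 1085 and 979.8 CPM in LatsCKO and control members at E14.5 and 13.3 and 15.1 CPM at E13.5. The other cells moved alike: over 79 such genes the median stage difference was 0.67 in members and 0.66 in other cells of LatsCKO hearts, and 1.20 and 1.17 in control hearts. Stage cannot be told apart from the depth and processing of the libraries, so the stage differences of members are given against those of the other cells. The make-up of the other cells also differed by stage: valve cells were 331 of 5377 at E14.5 and 1024 of 5464 at E13.5 in LatsCKO hearts, and 376 of 5168 and 843 of 4156 in control hearts. The part of this shift in the differences below was not tested.

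Against the other cells, 49 of 16127 genes were higher at E14.5 in the fibroblast difference (0.304%) and 38 lower (0.236%), and scaling with DESeq2 size factors gave 87 and 38. Markers of other cell types were among these calls. Of 12 cardiomyocyte markers 8 were higher, Myl2 and Myl3 among them, and of 12 endothelial markers 3 were higher. Of 10 erythroid markers 7 were lower. Of 15 interstitial collagen genes 3 were higher and 0 lower. Postn had 1269.7 CPM at E14.5 and 1298 CPM at E13.5 in LatsCKO members, and 1268 and 838 CPM in control members, while it was lower at E14.5 in the other cells of both genotypes (-0.92 and -0.57). Its level in LatsCKO members was thus nearly the same at both stages, and the other cells were lower at E14.5. The difference between members and other cells was 0.92 (SE 0.14, edgeR adjusted p = 1.44e-07). Dpt, the gene of the collagen-binding protein dermatopontin, had 116 and 36.8 CPM in LatsCKO members and 80.5 and 26.9 CPM in control members at E14.5 and E13.5, with a difference of 1.63 (SE 0.30, adjusted p = 2.81e-05). Col1a1, Col1a2, Col3a1 and Fn1, the fibronectin gene, differed by 0.58, 0.62, 0.57 and 0.58. Without the members that held other-class markers Col1a1 and Col3a1 no longer passed, with edgeR adjusted p of 0.065 and 0.0937.

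Cxcl12, Eln and Fbln5 ran the other way. Of 19 elastic fibre and microfibril genes these last 2 were lower and 0 higher, and the list's median was 0.14, against -0.06 for all genes. Cxcl12 had 147 and 784 CPM in LatsCKO members and 56.0 and 657 CPM in control members at E14.5 and E13.5, with a difference from the other cells of -2.34 (SE 0.19, edgeR adjusted p = 1.45e-31). Eln had 1776 and 4109 CPM in LatsCKO members and 602 and 2419 CPM in control members, with a difference of -1.03 (SE 0.15, adjusted p = 1.01e-08). Fbln5 differed by -1.08, Spon1, a secreted adhesion protein gene, by -1.90, and Myl9, a regulatory myosin light chain gene, by -0.89. Each was lower at E14.5 in members of both genotypes. DESeq2 called 13 genes, all of them among the 87. Mural markers in members also summed lower at E14.5 (1848 and 3209 CPM in LatsCKO, 1156.5 and 2602 CPM in control members), and without the members that held other-class markers Cxcl12 and Eln still passed, at -2.31 and -1.07. Without those members the mural sum was still 1625 and 3006 CPM in LatsCKO and 1068 and 2416 CPM in control members. The part of cells with mural genes in these differences was not tested.

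**Figure D5:**
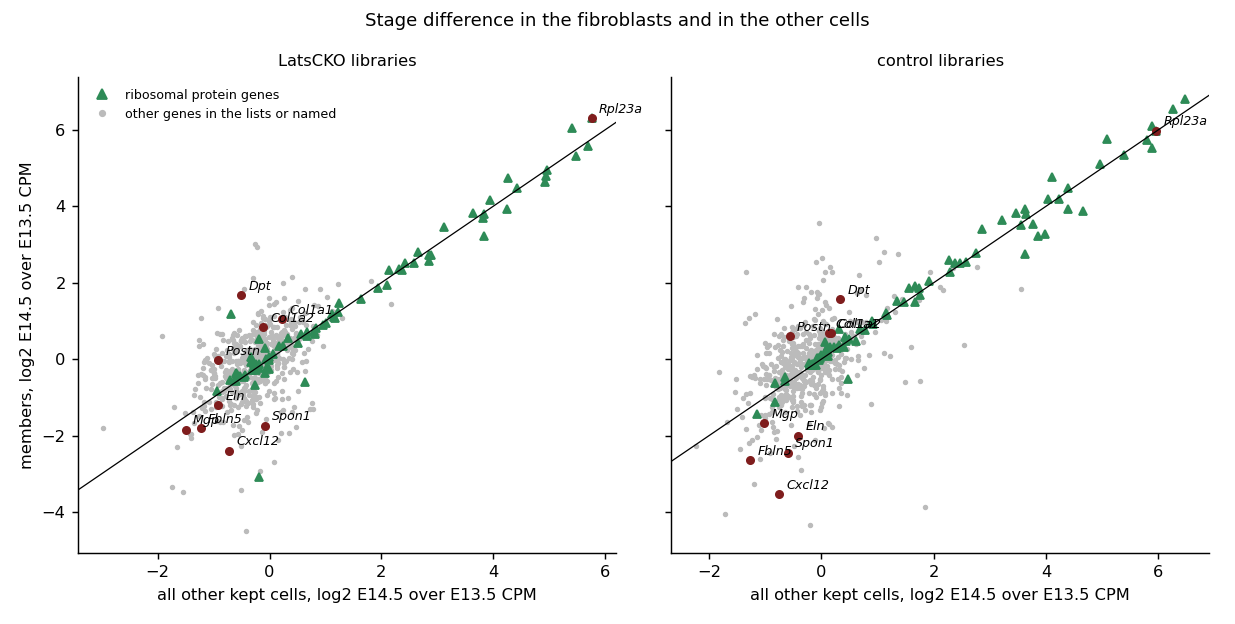
Log2 ratio of E14.5 over E13.5 CPM in members against all other kept cells, for LatsCKO and control libraries, over 623 listed or named genes of which 79 are ribosomal protein genes (triangles). Ribosomal protein genes follow the line of equal difference, Dpt and Postn lie above it, and Cxcl12, Spon1 and Eln lie below it.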

How the data were processed

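Whole-heart cells were captured by Drop-seq, with lysis in droplets and Nextera XT libraries per the labels' protocols. The submitters' processing notes name STAR, Picard and the mm10 build, without their roles. The deposited values are whole-number UMI counts per gene and cell, not normalized, and all cells of the 4 libraries stand in 1 table whose cell names carry the genotype and stage. The smallest number of genes per deposited cell was 500 for the E13.5 libraries and 300 for the later ones, so the stages were filtered differently before deposit. Total counts were 17081445 and 11191019 UMIs for LatsCKO and control at E13.5, then 10005514 and 9245525 UMIs at E14.5.

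Members were selected as the report describes, and the members and gene lists were chosen with earlier results of these data known. Counts were summed over members per library. Levels are CPM and were not compared between genes per length, since the reads are 3' tags. Ratios carry a prior of 0.5 UMIs and an exact conditional binomial 95% interval, and shares carry a Clopper-Pearson interval. Both cover counting error only. A count of 0 was set to a floor of 3 UMIs per library for a bound. Tests used edgeR 4.0.16 quasi-likelihood fits in R 4.3.3 with TMM factors, the filterByExpr filter and p-values adjusted by Benjamini-Hochberg over all genes tested, and a standard error from the F statistic. The additive fit of members had 1 residual degree of freedom, and its p-values rest on spread shared across genes (prior 10.8 degrees of freedom). In the fits against the rest the prior was infinite at a common dispersion of 0.00495, so all genes were tested as having the same extra spread. Fits were also run on simulated data, with an outcome that is not given here. DESeq2 1.42.0, other scaling, filters and memberships were tried as alternatives.

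No doublet caller was run. Leaving out the 5% of cells with the most UMIs, and leaving out members with markers of other classes, stood in for one. Genes were named by rule: every gene called for genotype, the 12 largest concordant stage ratios each way, the 10 leading stage calls each way, called and most abundant members of each list, the 20 leading genes over other cells, and at most 10 interaction calls each way. The 12 largest ratios each way in members without other-class markers, and the class by stage test, were added after seeing the data, and any gene outside these rules was chosen after its values were seen. Python 3.11.15, numpy 2.4.6, scipy 1.17.1 and pandas 2.3.3 were used. Gene positions are from GENCODE M21 on mm10 and promoter sequences from RefSeq.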

Additional observations from a re-analysis of the deposited data

Results flagged for a closer look

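Several genes had a genotype difference in the fibroblasts that differed from that in all other kept cells by an edgeR interaction test at an adjusted p under 0.05. The fibroblast difference was higher by 0.87 on the log2 scale for Eln, 0.80 for Mgp, 2.83 for Angpt1, 1.08 for Tnfrsf12a, 0.95 for Ankrd1, 3.24 for Stmn4, a stathmin family gene, 1.80 for Cited1, a transcriptional coregulator gene, and 1.5 for the muscle gene Smpx. The macrophage genes Pf4 and Lyz2 were higher by 1.95 and 1.72. The difference was lower by -0.77 for Igfbp5, -1.06 for Anxa1 and -2.15 for Adam15. Genes of endothelium were lower too, by -2.32 for Fabp4, -1.87 for Cdh5, -1.44 for Egfl7_Mir126a, -2.57 for Gpihbp1 and -3.08 for Sox17, as were Rgcc by -5.06 and Gm28045_Prnd by -3.05. Rgcc had 1 UMI in LatsCKO and 15 in control members at E13.5, then 0 and 15 at E14.5. Its fitted value thus depends on the prior for the empty library. Of the 44 genes called, 12 were also called without the members that held other-class markers. The make-up of the other kept cells differed by genotype, as given above. Against epicardial cells the fibroblast difference was higher by 2.23 for Pdlim3 and 1.42 for Mgp.

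Opposite directions at the stages with both counting intervals off 0 were seen for 250 of 10374 genes, of which 144 were ribosomal protein genes or pseudogenes. Of those in a gene list, leaving out genes of the selection and haemoglobin genes, 7 had both log2 ratios at least 0.5 from 0, and the difference between stages was not tested. The log2 ratio of LatsCKO over control at E14.5 was -2.54 for the mural gene Kcnj8 (0.87 at E13.5) and -0.56 for the atrial myosin gene Myl4 (1.03 at E13.5). For the macrophage gene Cd68 it was -3.42 (1.65 at E13.5), from 0 UMIs in LatsCKO and 10 in control members at E14.5, so that it is set by the prior and is no bound. It was 0.53 for the mitotic gene Cenpf (-0.93 at E13.5), 1.21 for the Wnt receptor gene Fzd1 (-0.52 at E13.5), 2.42 for Igfbp3 (-1.62 at E13.5) and 1.10 for Smad1 (-0.96 at E13.5).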

How the results depend on the processing

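The 16 genotype calls were 75 with no filter on low counts, 9 with at least 3 fibroblast genes required, 5 in members with a Tcf21 UMI, 1 without members holding other-class markers, 1 at 1000 UMIs or more, 2 without the 5% of cells with the most UMIs, 1 with the Dpp4 or Mfap5 positive cells included, and 0 by edgeR without marked members, ribosomal protein genes and pseudogenes. The 105 stage calls were 254, 64, 62, 39, 58, 45 and 49 under the first 7 of these in order, and 169 without ribosomal protein genes and pseudogenes. The 44 calls against the rest were 1 by DESeq2 and 14 without marked members. The 2 against epicardial cells were 26 with DESeq2 size factors, 27 with no filter, 0 by DESeq2 and 40 without marked members. The 87 stage calls against the rest were 13 by DESeq2 and 39 without marked members. The cause of these changes was not tested. DESeq2, which tested more genes, shifted the median of all genes by 0.24 in the comparison with epicardial cells, 0.11 for stage and 0.19 for stage against the rest. Over only the genes of the main fits its medians were -0.0544, -0.0524 and -0.0305, where the main fits had -0.0469, -0.0118 and -0.062. The 263 genes off 0 at both stages were 121 in members with a Tcf21 UMI, and a prior of 2 UMIs leaves them as they are by construction, since the exact intervals hold no prior.

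Shares of kept cells (7.62%, 7.19%, 3.93% and 6.12% for LatsCKO and control at E13.5, then LatsCKO and control at E14.5) were 4.94%, 5.20%, 2.57% and 3.76% with at least 3 fibroblast genes, 4.41%, 4.82%, 1.68% and 3.05% with a Tcf21 UMI, and 4.53%, 3.91%, 3.29% and 3.996% after thinning. At 1000 UMIs or more the control shares were 8.07% and 7.13%, and without marked members the LatsCKO share at E13.5 was 6.54%. The share ratio was 0.915 at E13.5 with a Tcf21 UMI and 0.823 at E14.5 after thinning. At E14.5 it was 0.550 with a Tcf21 UMI and 0.557 at 1000 UMIs or more, against 0.642 with all members. The genotype difference of Fabp4 was -2.02 with all members, and turned to 0.34 without marked members, 1.82 without the 5% of cells with the most UMIs and 0.27 without marked members, ribosomal protein genes and pseudogenes. Against the rest and without marked members Egfl7_Mir126a turned to 0.068 and Gm28045_Prnd to 6.70. No paired analysis was possible because the labels number no replicates within a genotype and stage; the stage term in the fit already sets LatsCKO against control libraries within a stage. Leaving out a library would leave no residual degrees of freedom in the fit of members. Depth limits rare genes: at E14.5 the members of the LatsCKO library summed to 292193 UMIs.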
